A study of Mus musculus with 87 samples.

Results

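New insertions of ETn elements were measured in several tissues, and in tail at a juvenile and an adult age, in 2 mice, C6733 and C7416. Members were the private insertions, meaning loci that reached at least 10 reads per 1e6 reads of the library (RPM) in a library of the mouse, reached it in no other animal, and held no read in either sequenced parent. By this rule C6733 had 132 private insertions and C7416 had 43, together 175 of the 5018 loci that were called in any of the 87 libraries. Both mice were offspring of the mating BA27227 x BA27232 in the mixed background B6x129X1/SvJ (F2). C6733 was a male of genotype Chr4-cl KO/KO, and 7 libraries came from its juvenile tail, adult tail, testis (2 libraries), brain, blood and kidney. C7416 was a female of genotype Chr4-cl KO/WT, with 1 library from its juvenile tail and 1 from its adult tail. The mother BA27227 (Chr4-cl KO/WT) and the father BA27232 (Chr4-cl KO/KO) were sequenced from ear. Chr4-cl stands for a group of neighbouring genes for KRAB zinc finger proteins on chromosome 4, and the KO allele lacks this group in every cell of the animal. Both parents and both mice carried at least 1 KO allele, and no wild type littermate was followed through tissues. Each genotype is a single mouse, and the samples called juvenile here are labelled only as tail, without an age. The study describes the earlier and the later tail DNA of a mouse as taken from separate parts of the tail, so age and position along the tail cannot be told apart in any comparison of the tails. Genomic DNA holds no expression markers, so the tissue names could not be checked against the data.

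ETn elements are endogenous retroviruses of the mouse that lie between long terminal repeats (LTRs) and still move by copying their RNA into DNA and inserting it elsewhere. KRAB zinc finger proteins bind such elements and recruit KAP1, which places repressive chromatin on them. An insertion in the germ line reaches every cell of the offspring, whereas an insertion in a cell of the embryo or of an adult tissue reaches only the descendants of that cell, which makes the animal a mosaic.

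The assay enriched genomic DNA with RNA probes against both ends of the ETn LTR and sequenced read pairs, and a locus was a cluster of reads with a single mapping position whose mates lay in an ETn repeat. The design held 1274 ETn probes of 120 bases, of which 598 began with the TGT that opens an LTR and 569 ended with the ACA that closes it. The most frequent probe of each end is shown as an example of the sequence that the assay pulled down, with the terminal bases of the LTR in capitals. The first stood in the design 52 times and the second 50 times.
probe at the start of the LTR: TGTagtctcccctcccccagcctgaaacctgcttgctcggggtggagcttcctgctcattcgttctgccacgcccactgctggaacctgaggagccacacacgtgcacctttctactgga
probe at the end of the LTR: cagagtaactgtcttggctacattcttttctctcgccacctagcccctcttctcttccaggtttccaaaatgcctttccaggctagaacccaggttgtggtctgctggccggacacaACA

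The following lines give the reference sequence (NCBIM37, the assembly also called mm9, plus strand, 150 bases) at the centre of the read cluster of the leading insertion of each tissue pattern, without loci that overlapped an exon. Capitals mark the middle 20 bases of the cluster. They show the host sequence of the locus, which can itself hold repeats of other families, and the cluster does not give the insertion point.
testis insertion in Park2, chr17:11399795-11399944: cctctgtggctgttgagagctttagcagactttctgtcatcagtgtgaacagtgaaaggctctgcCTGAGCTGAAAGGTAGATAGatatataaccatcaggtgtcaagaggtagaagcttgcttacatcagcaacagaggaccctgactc
blood insertion near Spata13, chr14:61220274-61220423: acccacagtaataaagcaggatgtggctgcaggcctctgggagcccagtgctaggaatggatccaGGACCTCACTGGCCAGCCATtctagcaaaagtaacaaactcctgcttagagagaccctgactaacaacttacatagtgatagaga
kidney insertion near Lgals3, chr14:47971608-47971757: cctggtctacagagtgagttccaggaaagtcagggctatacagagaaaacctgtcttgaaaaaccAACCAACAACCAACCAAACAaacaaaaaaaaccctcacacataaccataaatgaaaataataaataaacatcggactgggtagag
C6733, both tails, near Cacna2d3, chr14:29710434-29710583: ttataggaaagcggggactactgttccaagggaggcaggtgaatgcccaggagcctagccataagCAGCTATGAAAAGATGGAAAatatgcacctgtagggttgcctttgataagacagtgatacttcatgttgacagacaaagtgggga
C6733, juvenile tail alone, Rab30, chr7:99922351-99922500: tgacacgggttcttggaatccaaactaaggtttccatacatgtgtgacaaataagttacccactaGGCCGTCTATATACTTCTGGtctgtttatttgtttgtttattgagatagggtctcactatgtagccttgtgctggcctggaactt
C6733, adult tail alone, near Ngdn, chr14:55651696-55651845: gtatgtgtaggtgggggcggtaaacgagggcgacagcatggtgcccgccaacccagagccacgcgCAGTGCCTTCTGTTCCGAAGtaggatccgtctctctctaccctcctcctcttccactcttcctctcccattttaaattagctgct
C7416, both tails, near Slc1a3, chr15:8784871-8785020: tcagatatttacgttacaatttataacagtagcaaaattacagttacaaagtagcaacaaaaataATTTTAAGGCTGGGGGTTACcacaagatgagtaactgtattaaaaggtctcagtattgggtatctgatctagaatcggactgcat
None of the 175 private loci matched a capture probe within 1000 bp in the reference (blastn), whereas 99.6% of the 2158 loci called in all 87 libraries on chromosomes other than Y and M did.

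The 9 libraries held 625997 to 827035 ETn-paired reads, so that the 10 RPM threshold stood at 6.26 to 8.27 reads. The deepest library of C6733 was its juvenile tail with 812911 reads, and the other 6 held 667051 to 709037. A locus without a read could have had a level of up to 3.63 to 4.79 RPM, the value of 3 reads. At 254 loci that were polymorphic in the series, libraries of C6733 gave the same call at 98.8% to 100% and the C7416 tails at 99.2%, against 74.0% to 89.0% for libraries of their siblings. At the 2159 loci called everywhere, the counts of the 2 testis libraries differed by less than counting error (chi-square of 0.646 per locus). The same held for the juvenile and adult tail of C6733 (0.628) and of C7416 (0.960). Pairs of different tissues of C6733 gave 0.429 (blood and kidney) to 0.692 (juvenile tail and blood). These loci thus cannot tell 1 tissue or DNA sample from another, and the 2 testis libraries were counted as 1 tissue by their labels alone. Fewer cells with an insertion and fewer copies per cell cannot be told apart in bulk DNA.

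Private insertions of C6733 were concentrated in the tail, and each organ held a handful. The juvenile tail called 87 of them, which was 1.73% of the 5018 loci, and the adult tail called 37 (0.737%). Blood called 5 (0.0996%), kidney called 5 (0.0996%), the first testis library called 4 (0.0797%) and the second called 2 (0.0399%), and brain called 0. The 117 insertions called in a tail held no read at all in any of the 5 organ libraries, which amounted to 0 of 585 combinations of insertion and library. The 2 tails of C6733 shared 7 calls, which was 8.05% of the juvenile and 18.9% of the adult calls. No insertion was called in 2 different organs under the rule that bars any read in a parent. With parent reads below the threshold allowed, brain called 1, the second testis library 3 and the adult tail 38.

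**Figure D1:**
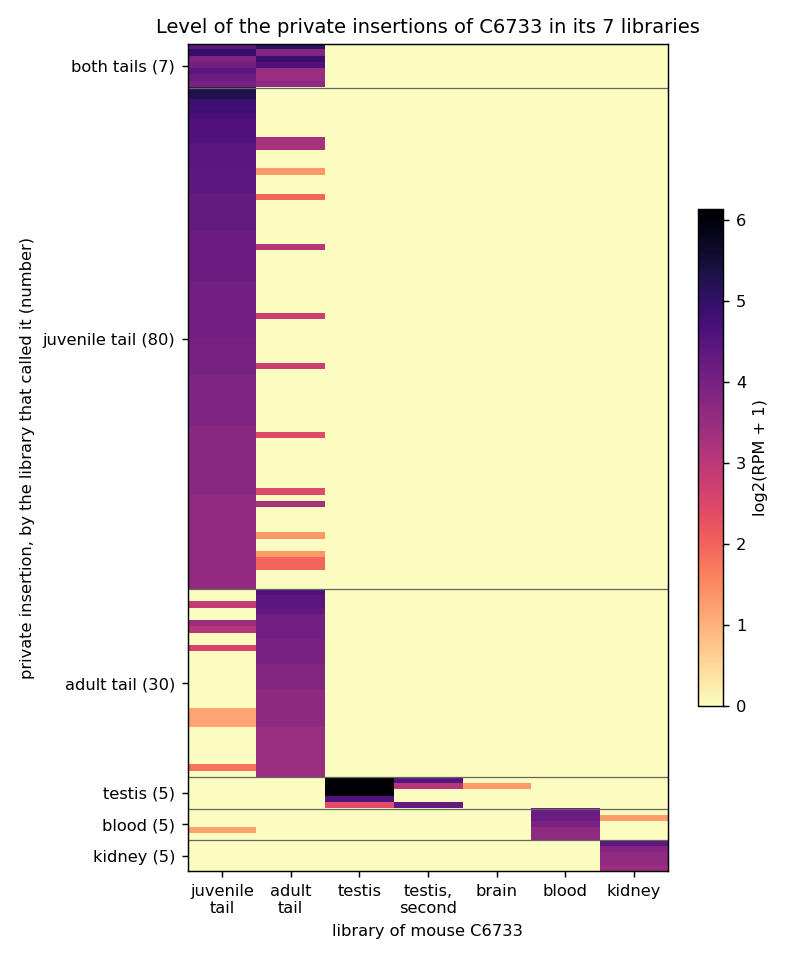
Each row is 1 of the 132 private insertions of C6733 and each column 1 of its 7 libraries; colour gives log2(RPM + 1), and rows are grouped by the library that called them, with the number of insertions in parentheses (insertions called in either testis library form 1 group). The blocks of the tails are empty in all organ columns, and brain has a single faint cell.

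The highest levels of any private insertion of C6733 were in testis. The insertion in an intron of Park2, which encodes the ubiquitin ligase parkin (chr17:11399563-11400177), held 69.1 RPM (49 reads) in the first testis library and 20.99 RPM (14 reads) in the second, and no read in the other 5 libraries. The insertion between genes near Cited2, a transcriptional co-regulator (chr10:17396891-17397407), held 66.3 RPM (47 reads) in the first testis library, 7.50 RPM (5 reads) in the second and 1.47 RPM (1 read) in brain. Both were thus present in each testis library, but at unequal levels: the first library was 3.29-fold higher at Park2 (exact 95% interval 1.79 to 6.46) and 8.84-fold higher near Cited2 (3.53 to 28.5).

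The testis insertion between genes near Gm9817 (chr13:45233291-45233931) held 64.9 RPM (46 reads) in the first library and no read in the second, where 43.3 reads would have stood at an equal level. This makes it at least 14.4-fold higher in the first library, against a floor of 3 reads. The insertion near Mrpl15, a protein of the mitochondrial ribosome (chr1:4781276-4782112), held 22.6 RPM (16 reads) in the first testis library and was at least 5.02-fold lower in the second, without a read. The insertion in an intron of Ypel2 (chr11:86797480-86797751) went the other way, with 4.23 RPM (3 reads) in the first and 17.99 RPM (12 reads) in the second library, a ratio of 4.25 (1.15 to 23.5). The interval of the ratio lay off 1 for 5 of 5 testis insertions, beside 37 of the 2586 other loci called in either testis library (1.43%). The insertions were chosen for a call in 1 of these libraries and the other loci were not, so nothing is read from this pair of values. The labels call the second library a replicate and name its tissue testes, and whether both libraries came from the same DNA was not tested.

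Blood and kidney each held 5 insertions at levels close to the call threshold. In blood they ran from 11.4 to 17.1 RPM (8 to 12 reads), and the highest were an insertion over a coding exon of Mamdc2 (chr19:23522487-23523017) and one between genes near Spata13, an exchange factor for small GTPases (chr14:61220211-61220486), with 12 reads each. The other 3 lay in an intron of the formin gene Fmnl2 (chr2:52771970-52772520, 8 reads), between genes near Apol7d (chr1:71842897-71843408, 8 reads) and on chromosome 18 (10 reads). In kidney they ran from 10.01 to 20.02 RPM (7 to 14 reads). The highest overlapped an untranslated exon of Ranbp3, a nuclear export cofactor (chr17:56850466-56850763, 14 reads). The next lay near Lgals3, which encodes galectin-3 (chr14:47971380-47971985, 9 reads), in an intron of Ubxn7 (chr16:32362198-32362592, 8 reads), near Blnk, an adaptor of the B cell receptor (chr19:41079103-41079358, 8 reads), and near 2610021K21Rik (chr12:100862179-100862383, 7 reads).

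Reads of 1 insertion in different tissues were rare. Of the 85 comparisons of an organ insertion with a library of another tissue, 82 showed no read there. The observed level in its own organ was then 2.23-fold to 18.7-fold the value of 3 reads in the other library. The exact 95% lower ends of these ratios ran from 1.37 (near 2610021K21Rik) to 14.7 (Park2). The 3 exceptions had 1 read each: the testis insertion near Cited2 in brain, the blood insertion near Apol7d in the juvenile tail, and the blood insertion in Mamdc2 in kidney. The ratios were 45.2 (exact 95% interval 7.72 to 1821), 9.27 (1.24 to 411) and 11.96 (1.77 to 511). The insertions were chosen for a call in their own organ, so the direction of these ratios was set by that choice. The intervals cover counting error only, since the reads carry no molecular identifiers. Over the 14 pairs of different tissues, with testis given by its first library alone, 3 of 566 calls had a read in the other tissue. This was a share of 0.530% (exact 95% interval 0.109% to 1.54%), which became 0.245% without blood and 0.980% without the juvenile tail. Each insertion entered once per partner tissue, so the calls are not independent and the interval can be too narrow. By comparison, 99.2% of all loci called in 1 of these tissues had a read in the other. The private insertions of C6733 had a read in 44 of 10296 combinations with libraries of animals that are not its ancestors, 0.427% (0.311% to 0.573%). These reads lay at 29 of the 132 insertions, with at most 3 reads. Each insertion entered once per library of those animals, with the same limit on the interval. The private rule barred calls in those animals but not in the other tissues of C6733. The share between its own tissues is thus not a like measure, and nothing is read from setting them side by side.

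In C6733 most insertions of either tail sample had no read in the other. Of the 87 juvenile calls 21 had at least 1 read in the adult tail (24.1%, exact 95% interval 15.6% to 34.5%), against 97.5% of all 2632 loci called in that library. Of the 37 adult calls 15 had a read in the juvenile tail (40.5%, 24.8% to 57.9%), against 99.1% of all 2582 loci. The adult tail held no read at 66 juvenile insertions, and the juvenile tail held none at 22 adult insertions. If the observed level of each call had held in both tails, counting error alone would have left 0.0112 juvenile and 0.00321 adult calls without a read. These expectations use counts that had passed the call threshold in the same library. That choice raises the levels put in, so the expectations can be too low. By how much was not computed, and nothing is read from setting them beside the observed counts. The ratio between the tails had an interval off 1 at 97 of the 117 tail insertions (82.9%), beside 38 of the 2581 other loci called in either tail (1.47%). Here too only the insertions were chosen for a call in 1 tail or the other, 80 of them called in the juvenile and 30 in the adult tail alone, so the count is a description.

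Among the 7 insertions called in both tails of C6733, 4 were higher in the juvenile and 3 in the adult tail. The one with the highest mean level lay between genes near Cacna2d3, a calcium channel subunit (chr14:29710218-29710800), with 19.7 RPM (16 reads) in the juvenile and 33.5 RPM (23 reads) in the adult tail, a juvenile over adult ratio of 0.588 (0.290 to 1.16). Near Zcchc7 (chr4:44949708-44950352) the values were 13.5 and 29.1 RPM, a ratio of 0.465 (0.201 to 1.02). In an intron of Rfx8 (chr1:39733860-39734519) they were 29.5 and 13.1 RPM, a ratio of 2.25 (1.01 to 5.51). The intervals near Cacna2d3 and Zcchc7 held 1 and that of Rfx8 did not. An intron of E130308A19Rik (chr4:59690616-59691149) held 16.0 and 23.3 RPM. The locus near Ntf3, which encodes neurotrophin-3 (chr6:126120158-126120571), held 20.9 and 10.2 RPM, and both intervals again held 1.

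Insertions without a read in the other tail reached 38.1 RPM in the juvenile and 23.3 RPM in the adult tail of C6733, while those called in both reached 29.5 and 33.5 RPM. In the juvenile tail 31 reads (38.1 RPM) lay over an untranslated exon of Dennd3, an activator of Rab GTPases (chr15:73401695-73402199), and 31 in an intron of Rab30 (chr7:99922096-99922756). Both were at least 8.73-fold lower in the adult tail. The next overlapped a coding exon of the keratin gene Krt78 (chr15:101778278-101778720) with 28.3 RPM (23 reads), at least 6.48-fold above the adult tail. In the adult tail the leading insertions lay near Ngdn (chr14:55651576-55651966, 23.3 RPM), near Acot11 (chr4:106509330-106509914, 20.4 RPM) and in an intron of the dynein gene Dync1li1 (chr9:114629794-114630140, 18.9 RPM). They had no read in the juvenile tail and were at least 6.31-fold, 5.53-fold and 5.13-fold higher in the adult tail.

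In C7416 most insertions of either tail sample had a read in the other. The juvenile tail called 26 private insertions (0.518% of the 5018 loci) and the adult tail 25 (0.498%), of which 8 were called in both (30.8% of the juvenile and 32.0% of the adult calls). Of the juvenile calls 18 had a read in the adult tail (69.2%, exact 95% interval 48.2% to 85.7%), against 99.4% of all loci called there. Of the adult calls 18 had a read in the juvenile tail (72.0%, 50.6% to 87.9%), against 99.7%. The ratio had an interval off 1 at 21 of 43 insertions (48.8%), beside 122 of the 2600 other loci (4.69%), which were not chosen in this way. Of the 28 insertions with a read in both tails, 14 were higher in the juvenile and 14 in the adult tail. Reads below the call threshold stood at 6 of the 43 insertions in animals that are not ancestors, at most 9.45 RPM (6 reads).

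The levels of single insertions of C7416 were close to equal in both tails at some loci and far apart at others. The insertion with the highest mean level lay between genes (chr15:8784658-8785233), 123894 bp from the glutamate transporter gene Slc1a3, with 35.1 RPM in each tail (29 and 22 reads), a juvenile over adult ratio of 0.998 (0.554 to 1.82). A coding exon of Trps1, a GATA-type repressor (chr15:50663038-50663695), held 19.3 and 20.8 RPM, a ratio of 0.932 (0.420 to 2.11). The locus near Pbp2 (chr6:135269693-135270129) held 19.3 and 19.2 RPM, a ratio of 1.01 (0.448 to 2.34). In these 3 the interval of the ratio held 1. Near 4931440P22Rik (chr3:65306693-65307410) the levels were 27.8 and 12.8 RPM, with reads below the call threshold in 3 other animals. In an intron of the adaptor gene Pag1 (chr3:9817680-9818135) they were 12.1 and 22.4 RPM, with such reads in 5 other animals. The intervals of both ratios, 2.18 (0.940 to 5.63) and 0.541 (0.215 to 1.31), also held 1. Among insertions as high as these, called in 1 tail with a few reads in the other, 3 are named here after their values were seen. In an intron of Dapk1, a death-associated protein kinase (chr13:60831695-60832170), the level was 3.63 RPM (3 reads) in the juvenile and 38.3 RPM (24 reads) in the adult tail, the highest of any private insertion of the mouse and 10.6-fold higher in the adult tail (3.21 to 54.8). An intron of the adenylate cyclase gene Adcy3 (chr12:4185419-4185855) held 35.1 RPM (29 reads) in the juvenile and 4.79 RPM (3 reads) in the adult tail, a juvenile over adult ratio of 7.32 (2.27 to 37.5). An intron of the zinc finger gene Zfp644 (chr5:106978448-106978920) held 4.84 RPM (4 reads) and 27.2 RPM (17 reads), 5.61-fold higher in the adult tail (1.83 to 22.9). None of these 3 intervals held 1. The loci named before them were chosen for a call in both tails, and these 3 for few reads in 1 tail. The contrast between the 2 kinds was set by that choice, so it is a description.

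Insertions of C7416 without a read in the other tail were fewer than in C6733, among fewer calls (26 and 25 against 87 and 37). Their highest levels were lower. Their medians were 12.1 RPM against 16.0 RPM in the juvenile tail, and 12.8 RPM against 13.1 RPM in the adult tail. The 8 juvenile calls without an adult read reached 20.6 RPM, and the leading ones lay near Atp2b4, a calcium pump gene (chr1:135740318-135740692, 17 reads), near Scel (chr14:103896404-103896787, 11 reads) and over a coding exon of the Ras-like gene Rit1 (chr3:88521250-88521507, 10 reads). The first was at least 4.29-fold lower in the adult tail. The 7 adult calls without a juvenile read reached 16.0 RPM, led by loci near Galntl5 (chr5:24650604-24651060, 10 reads), in an intron of the complement gene C2 (chr17:35024790-35025491, 10 reads) and near Fam107a (chr14:9157521-9157785, 8 reads). With 1 mouse of each kind, genotype, sex, age at sampling and the part of the tail sampled cannot be told apart as sources of the difference between the 2 mice.

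**Figure D2:**
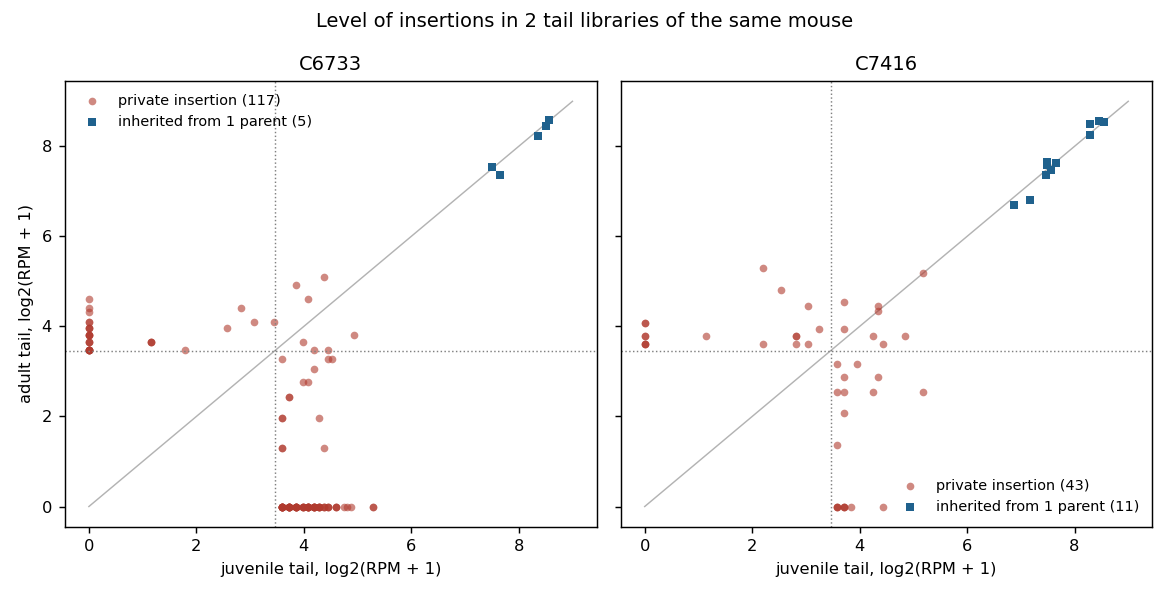
Each red point is a private insertion called in at least 1 tail, with its log2(RPM + 1) in the juvenile tail on the horizontal and in the adult tail on the vertical axis; blue squares are insertions inherited from 1 parent, the diagonal is equal level and the dotted lines are 10 RPM. Inherited insertions lie on the diagonal in both mice, while most points of C6733 lie on the axes and 28 of the 43 points of C7416 lie inside the plot.

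Repeat libraries of the same tail gave the reference for these shares, but the study describes such repeats as made from 1 DNA sample, unlike the tail pairs. Besides testis, 4 pairs of libraries carry a replicate label: tails of C7415 and C5734 (Chr4-cl KO/KO), C5731 (Chr4-cl WT) and H03387, which is a Chr4-cl KO/KO son of C6733. C5734 had no private insertion. In the other 3 pairs every private insertion of C7415 (56 of 56 calls, both directions added) and of C5731 (42 of 42) and 108 of 111 calls of H03387 (97.3%, exact 95% interval 92.3% to 99.4%) had a read in the repeat. Of all loci called in the first library of a pair, 99.9% (C7415 and H03387) or 100% (C5731 and C5734) had one. The C6733 tails gave 36 of 124 (29.0%, 21.2% to 37.9%) and the C7416 tails 36 of 51 (70.6%, 56.2% to 82.5%), both below the lower end of the interval of each tail repeat. The testis pair, which carries the same replicate label, gave 4 of 6 (66.7%, 22.3% to 95.7%), against 99.9% of all loci called in its first library.

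Over all repeat pairs 210 of 215 calls were found again (97.7%, 94.7% to 99.2%), and without the testis pair 206 of 209 (98.6%, 95.9% to 99.7%). The mean share of the 4 repeat pairs with insertions was 41.2 percentage points above that of the 2 tail pairs, with p = 0.267 in an exact two-sided permutation test over pairs of libraries. Without the testis pair the difference was 49.3 percentage points, with p = 0.200 in the same exact test, the lowest value that so few pairs allow. Without the C6733 tails it was 20.4 percentage points. With 4 against 2 pairs this permutation test cannot go below p = 0.133, so it cannot pass 0.05. Unequal levels were less frequent in repeats of tails, where the interval of the ratio lay off 1 at 11 of 149 private insertions (7.38%) chosen by the same rule as those of the tail pairs. The share of other loci, not chosen in this way, was 3.45% in the pair of C7415, 2.63% in C5731, 1.64% in H03387 and 1.1% in C5734.

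**Figure D3:**
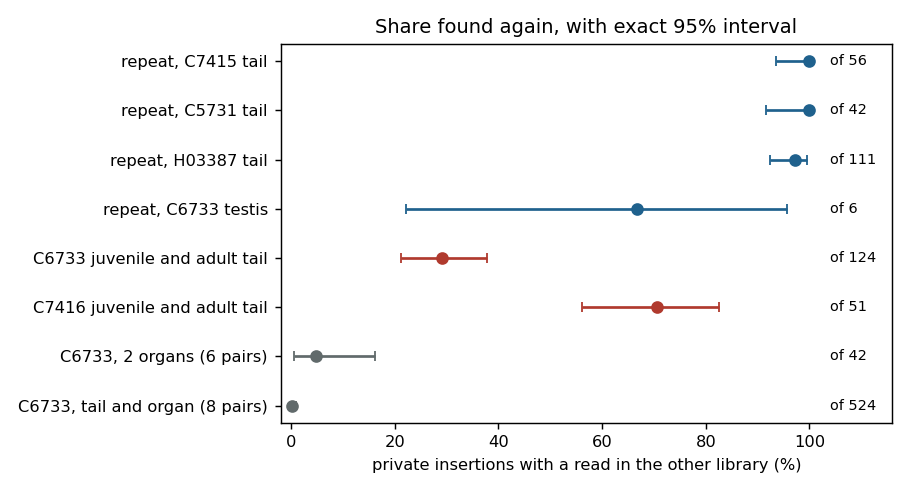
Points give the percentage of private insertions called in 1 library of a pair that had at least 1 read in the other, both directions added, and bars the exact 95% binomial interval; the number of calls stands at the right. Tail repeats sit near 100%, the C6733 tails at 29.0%, the C7416 tails at 70.6%, and pairs of different tissues near 0.

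Private insertions stood far below insertions that every cell carries on 1 allele. Of 24 autosomal loci with at least 100 RPM in 1 parent and no read in the other, C6733 had inherited 5 and C7416 had inherited 11, counted as those called in all libraries of the mouse. The coefficient of variation of their level per locus ran from 2.31% to 6.50% over the 7 libraries of C6733 and from 0.878% to 18.1% over the 2 tails of C7416, where the most unequal locus differed 1.29-fold. The median inherited level was 273 to 327 RPM in the libraries of C6733, and 187 RPM in the juvenile and 196 RPM in the adult tail of C7416. The median private insertion stood at 4.89% of it in the juvenile and 4.41% in the adult tail of C6733, and at 6.45% and 6.50% in the tails of C7416. The inherited loci differ between the mice, so these percentages cannot be set against each other. Both mice had inherited chr13:79099999-79102221. Its level was 327 and 297 RPM in the tails of C6733 and 310 and 304 RPM in those of C7416. In RPM the median private insertion stood at 16.0 and 13.1 in the tails of C6733 and at 12.1 and 12.8 in those of C7416. No private insertion of a tail exceeded 19.5% of the inherited level. Over all tail calls the median was 5.39%, and it became 8.11% where inherited loci needed at least 50 RPM in the parent and 4.02% where they needed 200. Of the 5 inherited loci of C6733, 4 lay on chromosome 11, so they are few and not independent.

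In the first testis library the insertions in Park2, near Cited2 and near Gm9817 stood at 22.3%, 21.4% and 20.9% of the inherited level, and the one near Mrpl15 at 7.27%. The medians were 7.14% in the second testis library, 4.83% in blood and 3.85% in kidney. The 10 RPM threshold bounds these percentages from below, and the lowest call of the juvenile tail of C6733 stood at 3.38%. Just below that threshold, the highest private loci held 9.84 RPM in the juvenile and 8.74 RPM in the adult tail of C6733, where 137 and 114 loci lay between 5 and 10 RPM. Added together, the private insertions amounted to 4.38 inherited insertions in the juvenile and 1.82 in the adult tail of C6733. In the tails of C7416 they amounted to 2.26 and 2.10, by the inherited loci of that mouse. In the organs the sums were 0.718 in the first and 0.143 in the second testis library, 0.242 in blood and 0.221 in kidney.

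An insertion of the germ line was available in C7416 for comparison. The locus in Cyfip2, a gene of actin regulation (chr11:46034231-46035369), was called in C7416 and its brother C6927 without a read in the parents, and in 4 offspring of C7416. It held 244 RPM in the juvenile and 286 RPM in the adult tail of C7416 (202 and 179 reads) and no read in any library of C6733. Its level was thus in the range of the inherited loci in both tails, unlike any private insertion.

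**Figure D4:**
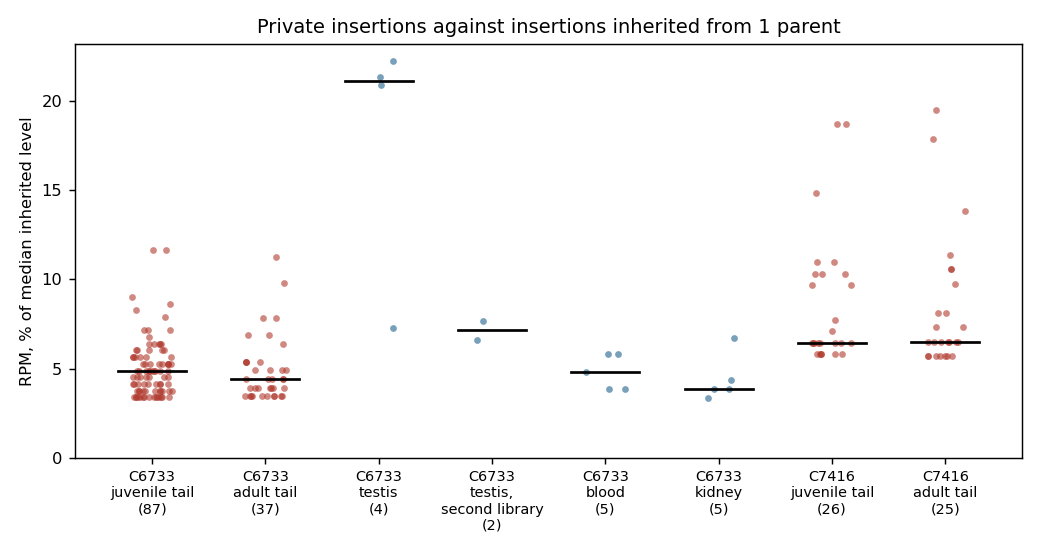
Each point is a private insertion in the library that called it, as a percentage of the median RPM of insertions inherited from 1 parent in that library; black lines are medians, tails are red and organs blue, and numbers of insertions stand in parentheses. Brain is left out because it had 0 insertions. Tail medians lie between 4.41% and 6.50%, and 3 of the 4 insertions of the first testis library lie above 20%.

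The private insertions were spread over 20 chromosomes. The centre of 81 of 175 lay inside a protein-coding gene (46.3%, exact 95% interval 38.7% to 54.0%), while coding genes cover 38.8% of the genome, which is inside that interval. The share was 47.0% for the tail insertions of C6733 and 46.5% for C7416, and 6 of the 15 organ insertions lay in such a gene. Loci called in all libraries had their centre in a coding gene in 18.2%. An exon held the centre of 11 private insertions (6.29%, 3.18% to 11.0%), while exons of coding genes cover 3.01% of the genome, which is below the interval. By mouse, this was 5 of 43 in C7416 (11.6%, 3.89% to 25.1%) and 6 of 132 in C6733 (4.55%, 1.69% to 9.63%). The interval of C6733 held the 3.01% of the genome, and that of C7416 did not. How much of each class is open to unique mapping was not taken into account. By overlap of the whole cluster, 57 insertions of C6733 touched only introns, 5 a coding exon, 2 an untranslated exon, 1 an exon of a non-coding gene and 67 no gene, while 16 insertions of C7416 touched only introns, 3 a coding exon, 2 an untranslated exon and 22 no gene. Of 85 annotated genes overlapped, 1 (Gm16627) was overlapped by more than 1 private insertion. The median cluster was 471.5 bp wide in C6733 and 454 bp in C7416, and the median GC content around it was 44.0%, against 41.8% of the genome.

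No private insertion lay within 100 kb of any of 8 genes with known ETn or related mutations in the mouse (Fas, Ptf1a, Fbxw4, Mip, Lep, Clcn1, Cacng2 and Hsf4). The nearest stood 345543 bp from Lep, the leptin gene.

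None of the 132 private insertions of C6733 had a read in its sequenced sons H03384 and H03387, which were followed in 3 libraries (0 of 396 combinations, upper end of the exact 95% interval 0.927%). Of the 43 insertions of C7416, 1 had a single read in 1 of its 8 sequenced offspring. The private rule barred a call in any other animal, offspring included, so an insertion passed on at the inherited level could not be a member. These counts and the interval therefore describe reads below the call threshold. Each insertion entered once per library, so the combinations are not independent and the interval can be too narrow. Where calls in descendants were allowed, 0 insertions were added in either mouse. In the other direction, the tail libraries of H03384 and H03387 called 61 and 86 insertions of their own. Here reads below the call threshold were allowed in ancestors, while a call in an ancestor still barred a locus. Neither set had a read in either testis library or in brain, kidney or adult tail of C6733. The juvenile tail of C6733 held 1 read at 1 insertion of H03384 and 2 reads at 1 of H03387, and blood held 2 reads at 1 of H03387.

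Among the other 14 offspring of the same parents, which have 1 main library of tail or ear each, 4 Chr4-cl KO/KO animals sampled from tail had 0 to 42 private insertions (median 26.5), 3 Chr4-cl KO/KO animals sampled from ear had 0 to 4 (median 0) and 7 Chr4-cl KO/WT animals, all sampled from tail, had 0 to 40 (median 0). Ear was sampled in KO/KO animals alone, so the genotypes can be set side by side only for tail. The juvenile tail of C6733, with 87, stood above all of them.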

How the data were processed

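The deposited values are raw read counts per region and library, neither normalized nor pooled. As the methods describe, the authors aligned each mate to mm9 with Bowtie, discarded duplicates with SAMtools, retained reads with a single mapping position whose mate overlapped an ETn repeat, and merged these within 1000 bp with bedtools (versions not given in the sources used here). Removing duplicates by position limits how many reads 1 site can give, which lowers high levels more than low ones. Their list further excluded regions beside reference ETn copies and known polymorphic elements, a filter not applied here.

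Counts were divided by the total of each library to give RPM, and loci of different libraries within 1000 bp were joined. Groups came from the labels, and organ labels of C6733 that lack a digit of the mother's number were read as the same mating. Shares have exact Clopper-Pearson 95% intervals, which treat calls as independent although 1 insertion can enter a share more than once. Ratios have exact intervals from the binomial split of 2 counts, and pairs of libraries were compared by an exact permutation test. None of these intervals measures the spread between mice. Genes came from GENCODE on NCBIM37 (0 regions ran past a chromosome end), and probes were searched with blastn 2.17.0 (e-value 1e-10, word size 11). Scripts used Python 3.11.15 and SciPy 1.17.1 and were tested on simulated data. Loci are named in the text if called in an organ of C6733, if read in several tissues, if among the 5 highest called in both tails of a mouse, or if among the 3 highest of 1 tail without a read in the other, and Dapk1, Adcy3 and Zfp644 were added after their values were seen. The mice, members and lists were chosen with earlier results of these data known. Alternatives covered the threshold, depth, joining, the private rule, the definition of found again, the inherited loci and left-out libraries.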

Additional observations from a re-analysis of the deposited data

Results flagged for a closer look

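The following values of C6733 stood apart from those of its other libraries when the gap between the most extreme library and the next was set against the whole range of the 7 libraries (Dixon's 95% limit of 0.568). Chance flags about 1 in 20 such groups, and 5 quantities were examined. The juvenile tail held 87 private insertions, with the next library, the adult tail, at 37 and a gap of 0.575 of the range. The juvenile tail was also the deepest library with 812911 reads, against 709037 in the next, a gap of 0.712 of the range. With every library thinned to 525419 reads the juvenile tail still called 94 private insertions and the adult tail 34, so the order of the tails was the same at equal depth. The share of reads on chromosome Y was 0.197% in blood and 0.145% to 0.156% in the other 6 libraries, a gap of 0.787 of the range. The cause was not tested.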

How the results depend on the processing

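Of 103 values recomputed under other settings, 79 were counted as unchanged, 24 moved and 0 reversed. Unchanged meant within the 95% interval of a share, within 1.5 times a count or within 1 standard deviation of the tail medians. These limits do not cover the difference between repeats and tails, which was counted as unchanged in every setting. At 20 RPM it was 25.5 percentage points, against 41.2 in the main setting. Shares, counts and levels have no sign to reverse, so the 0 concerns this difference alone. Leaving out loci with a probe match, or allowing calls in descendants, changed none of these values. The order of the found-again shares (repeats, C7416 tails, C6733 tails, different tissues) was the same under every setting in which all of them were computed. Calls were added over libraries, testis with both, so an insertion called in 2 libraries counted in each. Loosening the call to 5 RPM raised the calls to 383 in the C6733 tails, 42 in the organs and 125 in the C7416 tails, and lowered the shares to 21.1% (C6733 tails), 53.6% (C7416 tails) and 94.6% (repeats), with a level of 3.01% of inherited. At 20 RPM the calls were 21, 6 and 11, the tail shares 38.1% and 90.9%, and the level 8.83%. At least 10 reads left 10 organ calls and 29 calls in the C7416 tails. Where found again meant at least 10 RPM, the shares were 11.3% for the C6733 tails, 31.4% for the C7416 tails, 56.7% for repeats and 0.0% for different tissues, and with at least 2 reads it was 0.0% for different tissues. Reads below the threshold allowed in ancestors gave 2.09% for different tissues (12 of 575 calls, against 3 of 566 in the main setting). The level relative to inherited insertions was 4.17% with regions within 5000 bp joined, 8.11% with parent levels of at least 50 RPM, 4.02% with at least 200 RPM, and 6.90% with the other parent merely without a call, an alternative chosen after seeing the data. The cause of these shifts was not tested. Of 37 named insertions 20 remained private calls at 20 RPM, 30 at 10 reads, 33 after thinning and 31 where any read in another animal barred a locus. In the 6 other settings all 37 did.

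Leaving out 1 library or pair at a time gave 11 to 16 organ calls (testis libraries added), 0.245% to 0.980% for different tissues, 96.9% to 98.6% for repeats, and a difference between repeats and tails of 20.4 to 62.0 percentage points. Blood was the library whose omission lowered the tissue share most, to 0.245%, and omission of the juvenile tail raised it to 0.980%. Omission of the C6733 tails lowered the difference to 20.4 percentage points, with the C7416 tails as the only tail pair left. The tail comparisons are paired by mouse, each ratio and share being taken within 1 animal. With replicate number as a block, no paired analysis was possible because the labels number no replicates across groups. Depth limits what can be seen: a missing read allows a level of up to 3.63 to 4.79 RPM.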
